A study of Mus musculus with 6 samples.

Results

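Transcripts of 9 genes of thymic egress and sphingosine phosphate were examined in 6 RNA libraries of mouse thymocytes, the precursors of T cells. The genes were found by symbol among the 55536 genes of a table of read counts, and each of the 9 matched 1 row. They are the receptors S1pr1 and S1pr4, the regulators Cd69, Klf2 and Foxo1, and the enzymes and transporter Sphk1, Sphk2, Sgpl1 and Spns2. Thymocytes were taken in steady state, with no treatment named, from 3 wildtype mice (Il3ra+/+) and 3 mice deficient in the alpha chain of the interleukin-3 receptor (Il3ra-/-). The sources used here do not state strain, age, sex, the deleted part of the allele or any sorting. The series title names egress of regulatory T cells as one of its themes, and the comparison asks how the egress genes differ between the genotypes.

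Mature thymocytes leave the thymus by following sphingosine-1-phosphate, a lipid that is abundant in blood and kept low inside the tissue. The receptor S1PR1 senses it, and the surface protein CD69 binds S1PR1 and pulls it inside the cell, so that recently activated or immature cells stay. The transcription factor FOXO1 promotes expression of KLF2, which in turn switches on S1pr1 as single-positive cells mature. The kinases SPHK1 and SPHK2 make the lipid, SPNS2 exports it from vessel wall cells, and the lyase SGPL1 destroys it irreversibly.

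The libraries held 55747682 to 82684219 counts. T cell genes were abundant in all of them: Cd3e, a chain of the antigen receptor complex, lay at 79.6 to 101 RPKM. RPKM is a level per kilobase of exon in a library scaled to its depth. Rag1, from the list of double-positive thymocyte markers used below, lay at 425 to 609 RPKM. Il3ra itself does not check the genotype labels, because its counts (465, 376 and 399 in wildtype replicates 1 to 3, and 481, 673 and 514 in the libraries labelled knockout) overlap in CPM (counts scaled to each library's size with TMM factors) and are summed over the whole gene. Replicate 1 of each genotype had 88078 and 128236 counts of Xist, the RNA of the inactive X chromosome, and the other 4 libraries had 8 to 57. These 2 are called Xist-high libraries here, and values without them are given where these change the call or direction of a member, and for some of the lists.

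The regulatory sequence just before the start of Klf2 and S1pr4 is shown because Klf2 is the member whose genotype difference changed with the libraries used and S1pr4 is the receptor of the set whose start is in the reference table. Both come from RefSeq on GRCm38.p6, read 5′ to 3′ on the strand of the gene and ending before the first transcribed base. Capitals mark matches to 3 motifs searched on both strands: CACCC for KLF factors, the MEF2 consensus, and, for FOXO factors, the letters GTAAACA. The KLF letters lie on the opposite strand in S1pr4 and so read in reverse complement, and no match overlaps another.
Klf2, chr8:72318812-72319032, plus strand: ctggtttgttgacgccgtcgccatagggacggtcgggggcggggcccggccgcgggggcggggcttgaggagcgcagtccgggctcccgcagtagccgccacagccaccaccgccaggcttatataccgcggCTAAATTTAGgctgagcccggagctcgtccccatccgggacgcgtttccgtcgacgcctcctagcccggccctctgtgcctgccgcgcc
S1pr4, chr10:81500138-81500387, minus strand: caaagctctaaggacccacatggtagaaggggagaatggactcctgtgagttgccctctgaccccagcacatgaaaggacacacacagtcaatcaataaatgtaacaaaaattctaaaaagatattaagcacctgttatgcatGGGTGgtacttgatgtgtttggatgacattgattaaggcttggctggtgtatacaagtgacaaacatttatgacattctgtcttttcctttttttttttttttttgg
The Klf2 stretch is rich in G and C (71.5%) and holds 1 match to the MEF2 consensus. Over the full 250 bases before the RefSeq start Klf2 also has 1 KLF match, in the bases next to the start that are not printed. The S1pr4 stretch has 38.8% G and C and 1 KLF match. Of 32851 such 250-base windows in the table, 52% hold a KLF match, 3.17% a FOXO match and 2.92% a MEF2 match. The table held 7 of the 9 members (S1pr1 and Cd69 are the others), and in none of their windows was GTAAACA found. A match is a description of letters and not a binding site.

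None of the 9 genes passed the test between the genotypes. By edgeR's quasi-likelihood test 0 of 9 had a Benjamini-Hochberg adjusted p under 0.05 over the 18690 genes tested, against 0.091% of all tested genes. At an unadjusted p under 0.05 there was 1 of 9, Sphk1, against 14.6% of all genes (8.01% higher and 6.6% lower). Sphk1 had 3 to 19 counts a library and passed the low-count filter through the labelled knockout libraries alone, which favours a higher value there. DESeq2 called 0 of the 8 members to which it gave an adjusted p, with 0 at the unadjusted level, against 4.02% of all genes it adjusted (2.67% higher and 1.35% lower). Of the 9 genes limma-voom called 0, with 1 unadjusted, against 0.0749% of all genes. The members' log2 folds (labelled knockout over wildtype) had a median of -0.04, beside 0.01 for all tested genes, with 4 fitted higher and 5 lower. The genotypes did not overlap in 2 of the 9 genes, Sphk1 and Sphk2, against 20.3% of all genes. The p-values measure the spread between 3 mice a genotype. In RNA from whole thymocytes fewer cells of a type and less RNA per cell cannot be told apart.

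**Figure D1:**
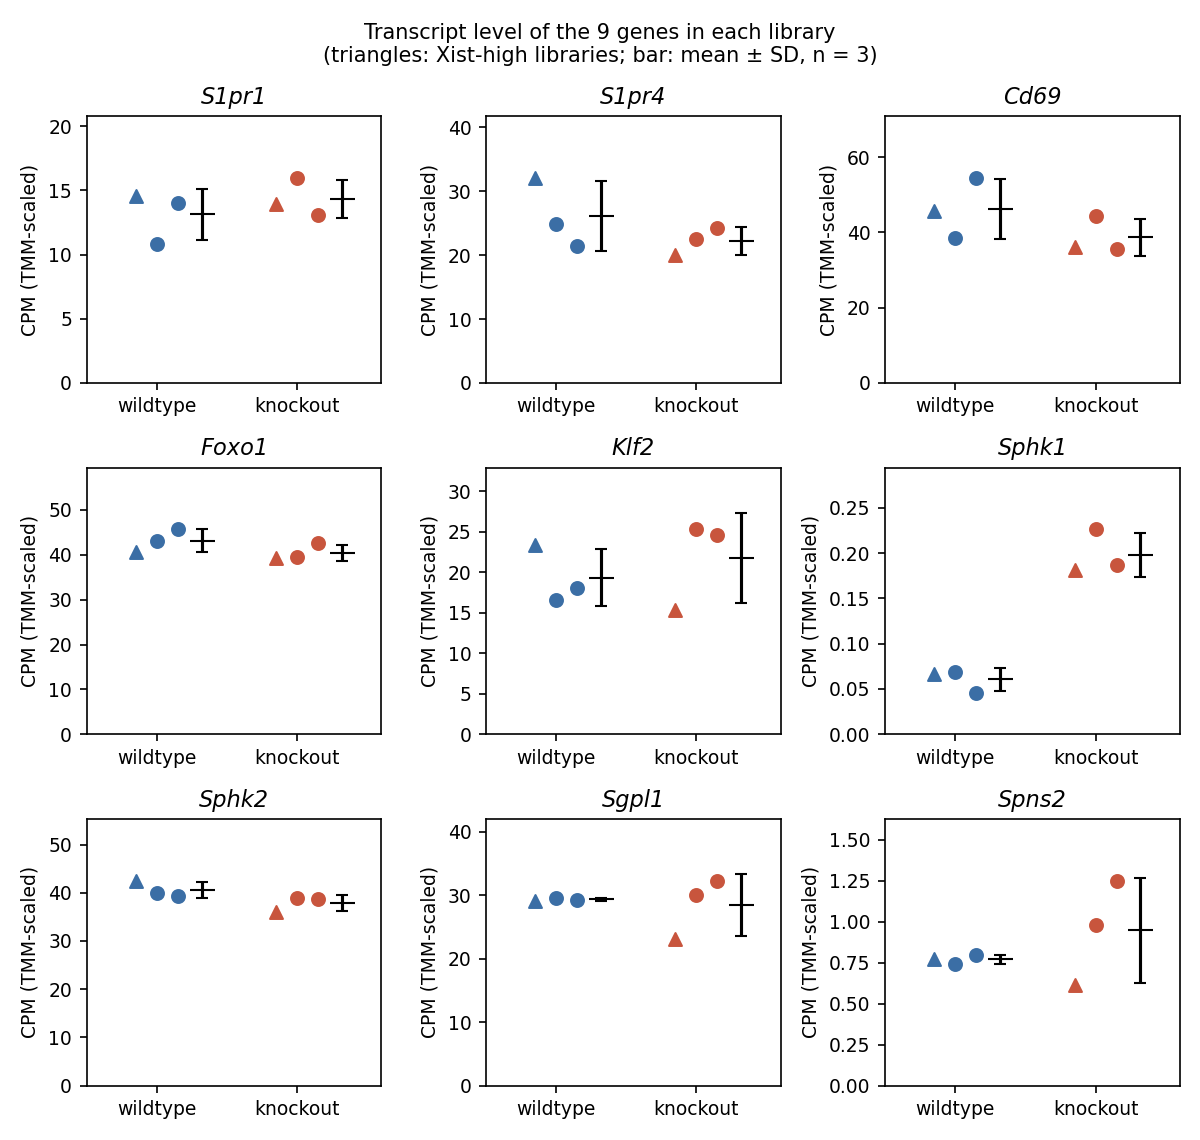
Level of each of the 9 genes in CPM (linear axis from 0) in each library, wildtype in blue and labelled knockout in red, with the mean ± SD of 3 libraries beside them and triangles for the Xist-high libraries. Sphk1 is the gene whose genotypes stand farthest apart, at 0.0460 to 0.0692 against 0.182 to 0.226 CPM, while in S1pr1, Cd69, Foxo1, Klf2, Sgpl1 and Spns2 the points of the genotypes interleave. Sphk1 had 3 to 19 counts a library and passed the low-count filter through the labelled knockout libraries alone.

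The receptors came first. S1pr1 (ENSMUSG00000045092, chromosome 3, 115710433 to 115715072, minus strand), the receptor that draws mature cells out of the thymus, had 14.6, 10.9 and 14.02 CPM in wildtype replicates 1 to 3 and 13.9, 15.98 and 13.1 CPM in labelled knockout replicates 1 to 3. The lowest library was wildtype replicate 2, the highest was labelled knockout replicate 2, and the genotypes overlapped. The fold was 1.09 with a 95% interval of 0.875 to 1.36 (adjusted p = 0.729 by edgeR, with the adjustment given above). Folds of S1pr1 within that interval are compatible with the values of 3 mice a group, and the interval is not a limit of detection.

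S1pr4 (ENSMUSG00000044199, chromosome 10, 81497747 to 81500132, minus strand), a receptor of lymphocytes for the same lipid, had 32.1, 24.9 and 21.4 CPM in wildtype mice, against 19.97, 22.5 and 24.2 CPM in labelled knockout mice. Wildtype replicate 1 stood above the other 5 libraries, which overlapped. Its fold was 0.850 with a 95% interval of 0.679 to 1.06 (edgeR, adjusted p = 0.493). Without both Xist-high libraries the log2 fold was 0.01, so the direction rests on these. Of the other receptors, S1pr2, which restrains migration, had 9.59 ± 1.31 CPM in wildtype mice, against 10.1 ± 1.42 in labelled knockout mice (SD, n = 3 each), and S1pr3 had 0.383 ± 0.119 and 0.259 ± 0.0711 CPM. S1pr5, the egress receptor of natural killer cells, had 6, 1 and 6 counts in wildtype mice, against 19, 6 and 17 in labelled knockout mice and was too low to be tested.

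Cd69 (ENSMUSG00000030156, chromosome 6, 129267325 to 129275436, minus strand), the retention protein that opposes S1PR1, had 45.8, 38.6 and 54.5 CPM in wildtype mice, against 36.1, 44.4 and 35.6 CPM in labelled knockout mice. Wildtype replicate 3 was highest and labelled knockout replicate 3 lowest, with overlap between them. The fold was 0.836 with a 95% interval of 0.678 to 1.03 (edgeR, adjusted p = 0.418). Antigen receptor signals induce Cd69. Of the 20 tested genes of a list of immediate early and antigen receptor-induced genes, 17 were fitted lower, with a median log2 fold of -0.20 and 0 past the adjusted threshold by edgeR (5 unadjusted), 1 lower by DESeq2 (Nr4a1) and 0 by limma-voom. Without the Xist-high pair the median of that list was -0.01, but Nr4a1 was still called lower (edgeR, adjusted p = 0.0498). In that fit 1.92% of all tested genes were called lower. Over all 6 libraries Nr4a1, a nuclear receptor induced by antigen signals, had 111 ± 11.9 CPM in wildtype mice, against 77.4 ± 13.2 in labelled knockout mice. Nab2, a repressor of EGR factors, had 49.3 ± 3.92 and 38.6 ± 4.90 CPM.

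The regulators differed in how steady they were. Foxo1 (ENSMUSG00000044167, chromosome 3, 52268336 to 52353221, plus strand) had 40.6, 43.1 and 45.7 CPM in wildtype mice, against 39.3, 39.4 and 42.6 CPM in labelled knockout mice. Its coefficient of variation within a genotype was 5.90% and 4.58%, and its fold was 0.937 with a 95% interval of 0.812 to 1.08 (edgeR, adjusted p = 0.686). An antisense model, Gm20402, shares 674 exon bases with Foxo1 and had 0 counts in all 6 libraries. Klf2 (ENSMUSG00000055148, chromosome 8, 72319033 to 72321656, plus strand) had 23.3, 16.6 and 18.1 CPM in wildtype mice, against 15.3, 25.3 and 24.6 CPM in labelled knockout mice. Its libraries fell into 3 high ones (wildtype replicate 1 and labelled knockout replicates 2 and 3) and 3 low ones. The coefficient of variation of Klf2 was 18.3% and 25.5%, where counting alone gives 2.91% and 2.51%. Over all 6 libraries its fold was 1.13 with a 95% interval of 0.835 to 1.52 (edgeR, adjusted p = 0.725).

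The order of the genotypes in Klf2 was opposite in the Xist-high and the Xist-low libraries. Among the 4 Xist-low libraries it rose 1.44-fold, with a 95% interval of 1.21 to 1.71, from 16.6 and 18.1 CPM in wildtype to 25.3 and 24.6 CPM in the labelled knockout (edgeR, Benjamini-Hochberg adjusted p = 0.0419, 2 libraries a genotype). It was the only one of the 9 genes called in that fit, in which 3.98% of all 19127 tested genes were called (2.06% higher and 1.92% lower). In the Xist-high pair the order was turned, at 23.3 CPM in wildtype mice, against 15.3 CPM in labelled knockout mice, a ratio of 0.658 with 1 library on each side. The difference of these differences, the interaction of genotype with the Xist-high class, had a log2 value of -1.13 for Klf2 (edgeR, adjusted p = 0.0368), and 0.685% of all tested genes were called in it, 0.508% in the direction of Klf2. The adjusted p was 0.00229 by DESeq2 but 0.0845 by limma-voom and 0.0507 with a stricter low-count filter. This interaction was chosen after the data were seen. Its 2 residual degrees of freedom come from the 4 Xist-low libraries alone, and the lone Xist-high library of each genotype is assumed to vary like them. The class cannot be told apart from these 2 mice.

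Macrophage markers moved with Klf2 across the libraries, as did genes outside their list. The summed CPM of 12 macrophage genes was 74.7, 50.3 and 52.0 in wildtype replicates 1 to 3 and 45.6, 77.3 and 90.6 in the labelled knockout, so the same 3 libraries were high. Rpl18, a ribosomal protein gene, was high in these 3 too, at 458, 392 and 383 CPM in wildtype mice, against 363, 419 and 460 CPM in labelled knockout mice. Frat1, given below, was split likewise, so the pattern is not particular to macrophage genes. All 11 tested macrophage genes were fitted higher, with a median log2 fold of 0.44, and 0 passed over all genes by edgeR (3 unadjusted), while DESeq2 called 1, Cd163, and limma-voom 0. In the Xist-low fit 5 of them were called, all higher (C1qa, C1qb, C1qc, Cd163 and Mrc1), against 2.06% of all genes called higher. No macrophage gene of the list was at 0 in all libraries, though Marco had 0 counts in 3 of them. The summed dendritic cell markers were 43.9, 38.2 and 43.5 CPM in wildtype mice, against 28.0, 62.6 and 89.4 CPM in labelled knockout mice. The part of macrophages or dendritic cells in the Klf2 values was not tested.

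**Figure D2:**
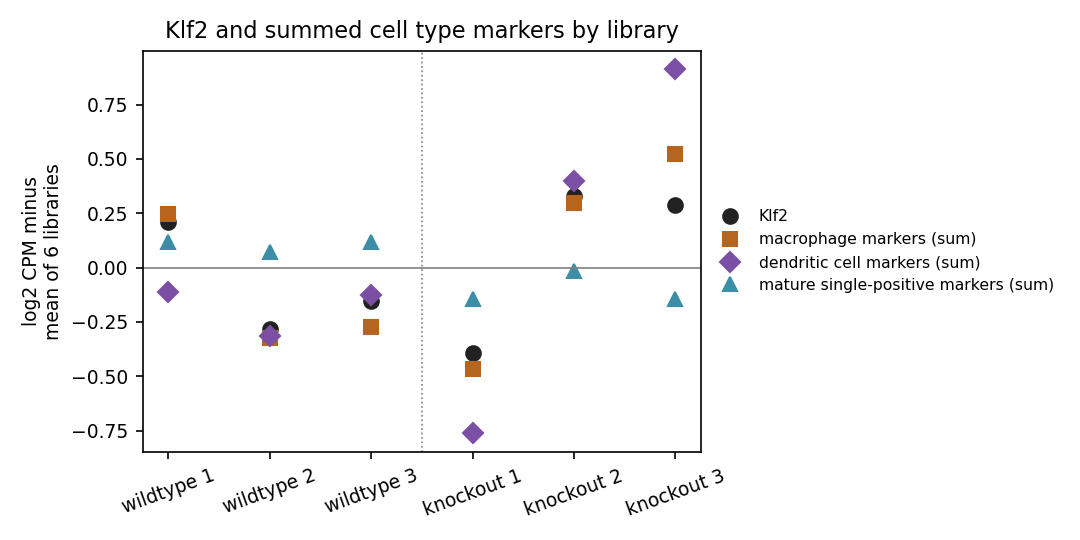
Klf2 and the summed CPM of macrophage, dendritic cell and mature single-positive thymocyte markers in each library, as log2 CPM minus the mean of the 6 libraries; the dotted line parts wildtype from labelled knockout. Klf2 (black) and macrophage markers (squares) are above their means in wildtype replicate 1 and labelled knockout replicates 2 and 3, and below them in the other 3 libraries.

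Genes that FOXO1 and KLF2 are known to control in T cells were listed next. Of the 11 tested targets 8 were fitted lower, with a median log2 fold of -0.14; 0 were called by edgeR (4 unadjusted, 3 of them lower), 1 lower by DESeq2 (Bcl6) and 0 by limma-voom. Bcl6, a transcriptional repressor, had 154, 190 and 168 CPM in wildtype mice, against 126, 120 and 123 CPM in labelled knockout mice, with no overlap (edgeR, adjusted p = 0.139). Itgb7, an integrin chain of gut homing, had 58.5 ± 6.62 and 49.5 ± 3.34 CPM, and Slfn2, a gene of T cell quiescence, had 93.8 ± 2.53 and 79.0 ± 11.5 CPM. Cd55, a complement regulator, had 1.34 ± 0.0428 and 2.16 ± 0.778 CPM. Ccr7, named after its values were seen as a textbook homing receptor of mature cells, had 32.2 ± 8.48 and 28.2 ± 1.97 CPM. In the Xist-low fit 0 of the 11 targets were called higher and 1, Bcl6, was called lower. Of all genes tested in that fit 2.06% were called higher and 1.92% lower. With shares so low, 11 genes cannot tell whether the targets followed Klf2.

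Related factors were listed as well. Of 9 tested FOXO and KLF factors 7 were fitted lower (median log2 fold -0.15), and 0 were called by edgeR (0 unadjusted), by DESeq2 (1 unadjusted) or by limma-voom. Klf4, a factor also made by myeloid cells, had 1.54, 2.08 and 2.34 CPM in wildtype mice, against 1.35, 4.03 and 4.50 CPM in labelled knockout mice, high in labelled knockout replicates 2 and 3. In the Xist-low fit Klf4 was called higher. Klf3 had 186 ± 20.4 and 159 ± 8.58 CPM, and Klf6 had 49.7 ± 4.46 and 56.4 ± 1.11 CPM without overlap.

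PI3K and AKT signalling keeps FOXO1 out of the nucleus, so its genes were listed too. Of 13 tested genes 9 were fitted lower, with a median log2 fold of -0.16; 0 were called by edgeR (3 unadjusted, all lower), 2 by DESeq2, both lower, and 0 by limma-voom. Those 2 were Inpp5d, the lipid phosphatase SHIP1, at 124, 152 and 133 CPM in wildtype mice, against 109, 104 and 92.1 CPM in labelled knockout mice, and Pik3ip1, an inhibitor of PI3K, at 117, 138 and 136 CPM and 94.6, 104 and 99.7 CPM. Both genes had every labelled knockout library below every wildtype library (edgeR, adjusted p = 0.151 for each). In the Xist-low fit both were called lower, against 1.92% of all genes called lower. Sgk1, a kinase that also phosphorylates FOXO factors, had 24.5 ± 3.09 and 18.2 ± 2.10 CPM.

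The enzymes that make the lipid were far apart in level. Sphk1 (ENSMUSG00000061878, chromosome 11, 116530925 to 116536674, plus strand) was near the limit of detection, with 4, 4 and 3 counts in wildtype replicates 1 to 3 and 11, 19 and 13 in the labelled knockout. Every labelled knockout library was above every wildtype library. In CPM these were 0.0671, 0.0692 and 0.0460 against 0.182, 0.226 and 0.187, and 3 counts, the most that 0 counts allow, stand for 0.0357 to 0.0519 CPM in these libraries. The coefficient of variation of Sphk1 was 21.2% in wildtype and 12.3% in the labelled knockout, below the 52.2% and 26.4% that counting alone gives. The libraries of a genotype thus lay closer together than such counts usually do. The fitted fold was 3.23 with a 95% interval of 1.46 to 7.15 (edgeR, unadjusted p = 0.00778, adjusted p = 0.200). Summed over each genotype, 11 against 43 counts gave a ratio of 3.34 with a 95% Clopper-Pearson interval of 1.69 to 7.17, which covers counting error only. Sphk1 entered the test through the labelled knockout libraries alone, since the low-count filter asked for 0.157 CPM in 3 libraries and no wildtype library reached it. An antisense model, Gm29292, shares 192 exon bases with Sphk1 and had 0 counts in all 6 libraries.

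Sphk2 (ENSMUSG00000057342, chromosome 7, 45709467 to 45718002, minus strand) had 42.5, 39.9 and 39.3 CPM in wildtype mice, against 36.0, 38.9 and 38.7 CPM in labelled knockout mice. All wildtype libraries lay above all labelled knockout libraries, but by little: the fold was 0.933 with a 95% interval of 0.811 to 1.07 (edgeR, adjusted p = 0.657). Its exons share 373 bases with Rpl18, a ribosomal protein gene at 411 ± 41.1 and 414 ± 48.8 CPM, and 539 bases with Dbp, a clock factor, both on the other strand. No source used here gives the strand setting of the counting, so reads of these stretches cannot be told apart.

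Removal and export of the lipid came next. Sgpl1 (ENSMUSG00000020097, chromosome 10, 61098642 to 61147703, minus strand), the lyase, had 29.1, 29.6 and 29.3 CPM in wildtype mice, against 23.1, 30.1 and 32.3 CPM in labelled knockout mice. The wildtype libraries differed by less than counting error (a coefficient of variation of 0.884%, where counting alone gives 2.37%), and labelled knockout replicate 1 lay below all others. The fold was 0.970 with a 95% interval of 0.801 to 1.18 (edgeR, adjusted p = 0.906). Its log2 fold of -0.04 became 0.09 when labelled knockout replicate 1 was left out. Spns2 (ENSMUSG00000040447, chromosome 11, 72451638 to 72489904, minus strand), the exporter, had 46, 43 and 52 counts in wildtype mice, against 37, 82 and 87 in labelled knockout mice, which is 0.771, 0.744 and 0.797 CPM against 0.611, 0.977 and 1.250 CPM. Labelled knockout replicate 1 was lowest and replicates 2 and 3 were the highest of the 6, with a coefficient of variation of 33.9%, where counting alone gives 12.1%. In wildtype it was 3.42%, below the 14.6% that counting alone gives. The fold was 1.23 with a 95% interval of 0.757 to 1.997 (edgeR, adjusted p = 0.705). Its exons share 131 bases with Mybbp1a on the other strand, a far more abundant gene at 118 ± 13.6 and 138 ± 7.36 CPM. As the strand setting is not given, reads of that stretch cannot be told apart either.

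In the thymus Spns2 is used by vessel wall cells, so their markers are given beside it. Cdh5, the adhesion protein of endothelial junctions, had 22, 26 and 29 counts in wildtype mice, against 41, 68 and 206 in labelled knockout mice, and Kdr, a receptor for vascular growth factor, had 13, 21 and 20 against 15, 42 and 85. Both were highest in labelled knockout replicate 3, as was Spns2. Being highest there was not particular to vessel genes. The summed markers of neutrophils were also highest there, at 72.0, 108 and 34.3 against 75.1, 36.8 and 427 CPM. So were those of macrophages, dendritic cells and natural killer cells. Those of B cells, erythroid cells, thymic epithelium, and pericytes and fibroblasts were not. Of the other tested endothelial genes, Egfl7 had 1.39 ± 0.541 against 2.19 ± 0.885 CPM, Esam had 13, 15 and 11 against 4, 19 and 15 counts, and Pecam1, the most abundant, had 118 ± 1.55 against 118 ± 2.29 CPM. Other defining endothelial genes were near 0: Tie1 had 0 counts in 4 libraries, Emcn had 0 or 1 in each and Cldn5 had 0 or 1 in each. Of 12 endothelial genes 5 passed the low-count filter and 3 of these were fitted higher, with 0 called by edgeR (1 unadjusted), 1 by DESeq2 (Cdh5) and 0 by limma-voom. Pdgfrb, a pericyte receptor, had 5.71 ± 0.615 CPM in wildtype mice, against 8.72 ± 1.35 in labelled knockout mice without overlap (edgeR, adjusted p = 0.165; called by DESeq2, adjusted p = 0.0207), while Rgs5 and Cspg4, further pericyte genes, had 0 to 13 counts. Of the 6 tested pericyte and fibroblast genes 2 were fitted higher and 4 lower (median log2 fold -0.14), with 0 called by edgeR (1 unadjusted), 1 by DESeq2 (Pdgfrb) and 0 by limma-voom. Dcn, a matrix protein of fibroblasts, had 0.455 ± 0.178 against 0.223 ± 0.108 CPM, and Kcnj8, a pericyte channel, had 1.03 ± 0.564 against 0.729 ± 0.339 CPM. The part of vessel cells in the Spns2 and Sphk1 values was not tested.

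Mfsd2b, the exporter of red cells, had 1.63, 2.44 and 1.69 CPM in wildtype mice, against 2.43, 1.33 and 1.24 CPM in labelled knockout mice and overlapped. Among the 15 tested genes of sphingosine phosphate metabolism and transport 9 were fitted higher and 6 lower (median log2 fold 0.09), with 0 called by edgeR (0 unadjusted), by DESeq2 (0 unadjusted) or by limma-voom (1 unadjusted). Asah2, a ceramidase that frees sphingosine, had 8.92, 6.70 and 6.76 CPM in wildtype mice, against 6.77, 11.2 and 9.83 CPM in labelled knockout mice, again high in labelled knockout replicates 2 and 3, and it was called higher in the Xist-low fit. Abcg1, a lipid exporter, had 143 ± 11.9 and 124 ± 3.70 CPM without overlap, and Sgpp2, a phosphatase of the lipid, had 0.104 ± 0.0756 and 0.220 ± 0.0309 CPM.

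Ceramide is the source of sphingosine. Of 12 tested genes of ceramide synthesis 9 were fitted lower, with a median log2 fold of -0.10; 0 were called by edgeR (2 unadjusted, both lower), 1 lower by DESeq2 and 0 by limma-voom. That gene was Cers6, a ceramide synthase, at 74.5, 101 and 96.2 CPM in wildtype mice, against 76.9, 64.2 and 55.7 CPM in labelled knockout mice (edgeR, adjusted p = 0.200). It was called lower in the Xist-low fit, and in the Xist-high pair its values were close. Degs1, the desaturase that completes ceramide, had 48.8 ± 3.57 and 41.2 ± 2.51 CPM without overlap.

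Cells answer the lipid through G proteins and the actin machinery. Of 15 tested signalling and motility genes 11 were fitted lower (median log2 fold -0.14), and in 8 every labelled knockout library lay below every wildtype library, against 9.38% of all tested genes in that direction. By edgeR 0 were called (3 unadjusted, all lower), as by DESeq2 (4 unadjusted) and limma-voom (4 unadjusted). Dock2, the RAC activator of lymphocyte migration, had 318, 351 and 334 CPM in wildtype mice, against 270, 297 and 277 CPM in labelled knockout mice. Dnm2, the dynamin of receptor uptake, had 341 ± 15.6 and 285 ± 20.1 CPM, and Arrb2, an arrestin that binds occupied receptors, had 118 ± 6.06 and 101 ± 7.43 CPM. Genes of T cell identity were counted beside them: all 10 tested ones were fitted lower (median log2 fold -0.16), with 0 called by edgeR (2 unadjusted), 1 lower by DESeq2 (Trac) and 0 by limma-voom. The separation was not particular to the motility genes. In 5 of these 10 genes and in 7 of 13 double-positive thymocyte markers every labelled knockout library also lay below every wildtype library. The 18 cell division genes were all fitted higher (median log2 fold 0.48), with 0 called by edgeR (18 unadjusted), 13 higher by DESeq2 and 0 by limma-voom. The part of these lists in the motility genes was not tested.

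Over the 7 lists of other pathway genes 76 of 82 genes were tested, 26 fitted higher and 50 lower. Of all 18690 tested genes 9572 were fitted higher and 9118 lower. By edgeR 0 genes of these lists were called. At an unadjusted p under 0.05 there were 12 (15.8%), against 14.6% of all tested genes. Of the 12, 1 was higher and 11 lower, where all tested genes gave 8.01% higher and 6.6% lower. The lists thus leaned to lower values, which the share in both directions does not show. DESeq2 gave an adjusted p to 71 of the 76 genes and called 4 (5.63%), all lower. Of all genes it called 4.02% (2.67% higher and 1.35% lower). Limma-voom called 0 genes of these lists.

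**Figure D3:**
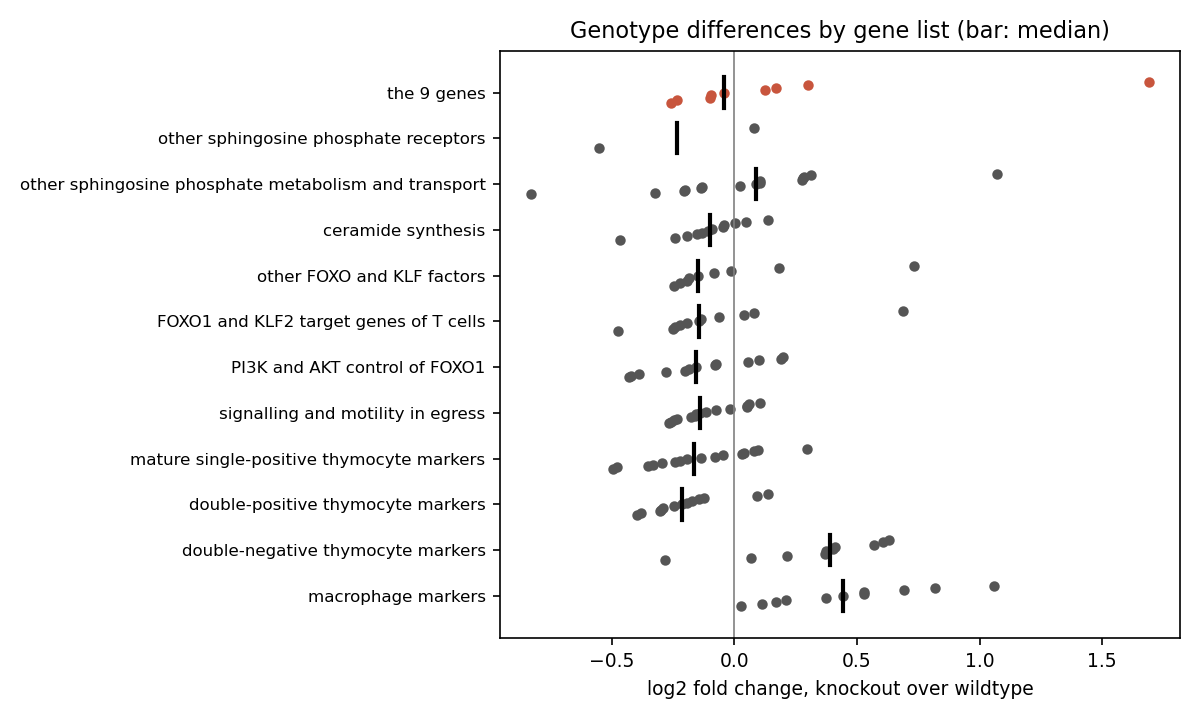
Log2 fold change (labelled knockout over wildtype, horizontal axis) of each tested gene in the 9-gene set (red) and in 11 other lists (grey), with the median of each list as a black bar. The pathway lists and those of double-positive and mature thymocytes have medians between -0.24 and 0.09, the double-negative list stands at 0.39 and the macrophage list at 0.44, and Sphk1 at 1.69 is the farthest point. That gene passed the low-count filter through the labelled knockout libraries alone.

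Mature single-positive cells carry most S1pr1 and Klf2, so their markers are given here. Of 16 tested markers 11 were fitted lower (median log2 fold -0.16); 0 were called by edgeR (5 unadjusted, all lower), 2 lower by DESeq2 (Zbtb7b and Dgka) and 0 by limma-voom. Their summed CPM was 2618, 2533 and 2613 in wildtype mice, against 2177, 2387 and 2181 in labelled knockout mice, with no overlap. Zbtb7b, the regulator of the CD4 lineage, had 39.7 ± 4.83 and 28.1 ± 3.26 CPM. Without the Xist-high pair the median was -0.06. Double-positive markers, of the stage before, were counted beside them: 11 of 13 were fitted lower (median log2 fold -0.21), with 0 called by edgeR (7 unadjusted), 1 lower by DESeq2 (Ccr9) and 0 by limma-voom. Their sums were 11367, 12760 and 11980 CPM against 10650, 10258 and 10083 CPM. Of the 10 tested markers of double-negative cells, the earliest stage, 9 were fitted higher (median log2 fold 0.39), with 0 called by edgeR (4 unadjusted, 3 of them higher), by DESeq2 (6 unadjusted) or by limma-voom (4 unadjusted). Of these Kit, a growth factor receptor of early precursors, had 6.59, 6.54 and 7.63 against 7.25, 11.5 and 12.8 CPM, and it was called higher in the Xist-low fit. Il2ra, a cytokine receptor chain of that stage, had 57.8 ± 11.1 against 74.8 ± 7.44 CPM. The share of cells at each stage was not measured.

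**Figure D4:**
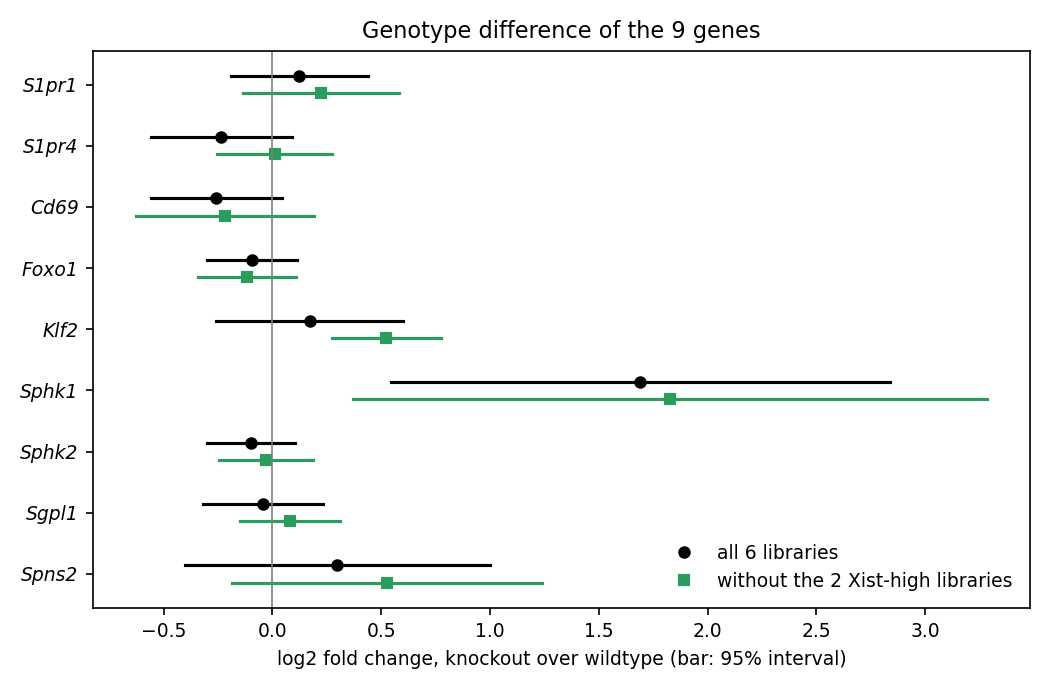
Log2 fold change of the 9 genes (labelled knockout over wildtype) with 95% intervals from edgeR, from all 6 libraries (black circles) and without the 2 Xist-high libraries (green squares). With all 6 libraries every interval but that of Sphk1 spans 0, and without the Xist-high pair those of Klf2 and Sphk1 lie above 0. Sphk1, at 3 to 19 counts a library, passed the low-count filter through the labelled knockout libraries alone.

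Per kilobase of exon the 9 genes kept a wide order. Averaged over 6 libraries, Klf2 was highest at 11.1 RPKM, followed by S1pr4 (10.1 RPKM), Sphk2 (9.43 RPKM), Cd69 (6.53 RPKM), Foxo1 (4.82 RPKM), Sgpl1 (4.71 RPKM) and S1pr1 (4.51 RPKM). Spns2 (0.210 RPKM) and Sphk1 (0.0271 RPKM) stood far below. Klf2, S1pr4 and Sphk2 overlapped over the libraries, as did Foxo1, Sgpl1 and S1pr1, so the order inside these trios is not firm. The highest library of Cd69 (8.38 RPKM) passed the lowest of Klf2 (8.31 RPKM) and of S1pr4 (8.37 RPKM). The place of Cd69 below these genes is therefore not firm either. S1pr1 lay at the 49.4th percentile of the 13189 tested protein-coding genes, Klf2 at the 72.3rd and Sphk1 at the 0.9th. With the length of the longest transcript in place of all exons, Sphk2 moved to 11.1, Cd69 to 8.56 and Sgpl1 to 6.63 RPKM, and 4 of the 9 ranks changed.

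The genes most like S1pr1, Klf2 and Cd69 over the 6 libraries were found among 8327 genes of at least 10 CPM, by the mean absolute difference of log2 CPM around each gene's own mean. For S1pr1 they included Trps1 (0.05) and Cnn2 (0.06). For Klf2 they were Frat1 (0.05), Rpl9-ps7 (0.06) and Gpx4-ps2 (0.06), the last pair being pseudogenes whose reads can come from their parent genes. For Cd69 they were Ifi208 (0.05), Sytl2 (0.05) and Ifi206 (0.05). Frat1 had 13.9, 11.0 and 11.0 CPM in wildtype mice, against 8.89, 14.7 and 14.5 CPM in labelled knockout mice, high and low in the same libraries as Klf2. Such likeness over 6 libraries is a description of these samples.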

How the data were processed

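RNA of thymocytes from 6 mice was isolated with a NucleoSpin column kit and made into stranded poly(A) libraries (TruSeq Stranded mRNA), per the labels' protocols. STAR 2.5.4b, featureCounts and the build GRCm38 are named in the submitters' processing notes; no source used here gives their annotation, strand setting or handling of multi-mapped reads. The authors deposited raw counts per Ensembl gene, 1 column per library. All 55536 identifiers matched GENCODE M21, the source of symbols, positions and exon lengths.

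Genes were filtered with filterByExpr (18690 left), scaled by TMM and tested in R 4.3.3 by edgeR 4.0.16 (robust glmQLFit, then glmQLFTest) with no covariate, p-values being Benjamini-Hochberg adjusted over all tested genes. The common biological coefficient of variation was 18.7%. Folds are labelled knockout over wildtype. Alternatives were DESeq2 1.42.0, limma-voom (limma 3.58.1), 3 scalings, 2 filters, a replicate block, a term for Xist-high libraries, the omission of each library and of both Xist-high libraries. The scripts were tested on simulated data. The members, the 22 other lists and the rules were chosen with earlier results of these data known. Up to 4 genes of smallest unadjusted p were eligible per list, and other genes named in a list, such as S1pr5, Mfsd2b, Tie1, Emcn, Cldn5, Rgs5, Cspg4 and Marco, were chosen after their values were seen. No library was a copy of another of its genotype: chi-square values per degree of freedom within a genotype were 41.2 to 96.5. Pairs across the genotypes were not compared in this way. The series' design text gives 3 mice per group. Some genes that the naming rule allows are not reported here.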

Additional observations from a re-analysis of the deposited data

Results flagged for a closer look

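Klf2 is listed because the order of the genotypes was opposite in the Xist-high and the Xist-low libraries and the interaction passed the threshold by edgeR. It had a log2 value of -1.13 (adjusted p = 0.0368 by edgeR, Benjamini-Hochberg over 18690 genes, of which 0.685% were called). Klf2 was lower in the labelled knockout in the Xist-high pair (15.3 against 23.3 CPM) and higher in both Xist-low labelled knockout libraries (25.3 and 24.6 against 16.6 and 18.1 CPM). S1pr4 and Sgpl1 had unadjusted p-values of 0.00638 and 0.0434 in the same test and did not pass (edgeR, adjusted p = 0.111 and 0.226). The Xist-high class has 1 library a genotype, the 2 residual degrees of freedom come from the Xist-low libraries alone, and the contrast was chosen after the data were seen. For Klf2 limma-voom (adjusted p = 0.0845) and a stricter low-count filter in edgeR (adjusted p = 0.0507) did not call it.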

How the results depend on the processing

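Of the 16 alternative fits, 15 called 0 of the members they tested (all 9, except 8 with DESeq2 and 7 with at least 1 CPM in 3 libraries, which dropped Sphk1 and Spns2), and the fit without both Xist-high libraries called 1, Klf2 (log2 fold 0.52, edgeR adjusted p = 0.0419). Leaving out 1 library at a time called 0 in each case. S1pr1, Klf2, Foxo1, Cd69, Sphk1, Sphk2 and Spns2 kept their direction in every alternative that gave a value. S1pr4 turned to 0.0098 without both Xist-high libraries, and Sgpl1 turned to 0.0808 without that pair and ranged from -0.144 to 0.0892 with 1 library left out, turning only without labelled knockout replicate 1. The cause was not tested. Over all genes, 17 calls became 587 with DESeq2, 840 without the low-count filter, 762 without both Xist-high libraries and 9 with the replicate block, and leaving out 1 library gave 8 (wildtype replicate 2 left out) to 29 (labelled knockout replicate 1). The Klf2 interaction was weaker with limma-voom (-1.13, adjusted p = 0.0845) and with at least 1 CPM in 3 libraries (-1.11, adjusted p = 0.0507), and held with DESeq2. With the longest transcript 4 ranks of level changed. Same-numbered libraries did not deviate together (correlations of -0.11, 0.03 and -0.12 for replicates 1 to 3), so the replicate block, under which 0 of the 9 genes were called, has no support as a pairing. The median of all genes stayed within 0.1 (log2) under the 3 other scalings. Depth limits Sphk1 (3 to 19 counts a library) and Spns2 (37 to 87 counts).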
